A study of Rattus norvegicus with 4 samples.

Results

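Haemoglobin and red cell transcripts were examined in cerebellum and prefrontal cortex of male rats sorted by immobility in the forced swimming test. The set has 9 genes: the alpha-type globin gene Hba-a1, the beta-type globin genes Hbb, Hbb-b1, Hbb-bs and Hbe2, and the red cell genes Alas2, Ahsp, Slc4a1 and Bpgm. They were found on the 1-colour Agilent array as the probes whose RefSeq accession belongs to one of these symbols, which gave 14 probes with 26 spots out of 30367 probes with 58717 spots. Named genes on the array number 15443. The genes were selected on the measured difference between depressive and control arrays, namely higher globin signals in both tissues, so the differences between depressive and control rats below are a description of the choice and carry no test. The differences between the tissues were not used in the choice.

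There are 4 groups, a control and a depressive one for either tissue, and each is 1 array of RNA pooled in equal amounts from 4 rats. Of 106 normal rats scored in the swimming test, those with depressive-like behaviour made the depressive groups and those with average behaviour the control groups. No group received a drug or carried a mutation, and strain and age are not given in the sources used here. All brains were flushed with cold saline through the heart before slices 1 mm thick were cut, per the labels' protocols. A pool of 4 animals hides the spread between animals, the labels do not say whether the same rats gave both tissues, and a single array per group leaves no replicate within a tissue.

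Haemoglobin is a tetramer of alpha-type and beta-type chains, each holding a haem group that binds oxygen. Red cells make it as precursors in the marrow, under erythroid transcription factors such as GATA1 and KLF1, and young circulating red cells still carry globin mRNA after losing their nucleus. Blood in the vessels can carry globin transcripts into brain RNA, and globin mRNA has also been described in some neurons and glia. Haem synthesis in red cell precursors starts with ALAS2, free alpha chains are held by the chaperone AHSP, the anion exchanger SLC4A1 is the main protein of the red cell membrane, and BPGM makes the bisphosphoglycerate that lowers the oxygen affinity of haemoglobin.

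Of the 9 genes, 5 lie on chromosome 1 of the RefSeq assembly GRCr8, among them all 4 beta-type globins. Hba-a1 and Slc4a1 lie on chromosome 10, Bpgm on chromosome 4 and Alas2 on chromosome X. RefSeq promoter windows of build GRCr8 were available for 6 of the 9 genes, but the Alas2 window lies inside the annotated span of its gene and may not be the promoter in use, so nothing was read from it. No window was available for Hbe2, Ahsp and Slc4a1. The 120 bases before the annotated start are shown for the other globins, which were higher together on the depressive arrays, and for Bpgm, which was not. Capitals mark 3 kinds of motif, namely CACCC on either strand, CCAAT on either strand, and the TATA-type letters TATAAA on the strand shown or their variants CATAAA beside ATAAAA, which overlap in Hbb. All are written 5′ to 3′ in the direction of transcription.
Hba-a1 (chr10:15842581-15842700, minus strand): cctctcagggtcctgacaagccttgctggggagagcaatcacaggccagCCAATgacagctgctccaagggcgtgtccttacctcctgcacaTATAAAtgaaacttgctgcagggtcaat
Hbb (chr1:167663722-167663841, minus strand): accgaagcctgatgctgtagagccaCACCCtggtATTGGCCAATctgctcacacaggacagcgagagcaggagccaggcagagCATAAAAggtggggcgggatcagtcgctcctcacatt
Hbb-b1 (chr1:167643521-167643640, minus strand): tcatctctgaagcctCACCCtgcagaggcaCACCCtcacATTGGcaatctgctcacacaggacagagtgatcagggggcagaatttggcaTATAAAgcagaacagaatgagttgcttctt
Hbb-bs (chr1:167631631-167631750, minus strand): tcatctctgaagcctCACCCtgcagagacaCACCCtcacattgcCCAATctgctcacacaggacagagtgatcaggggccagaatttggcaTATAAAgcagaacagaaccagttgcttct
Bpgm (chr4:64107157-64107276, plus strand): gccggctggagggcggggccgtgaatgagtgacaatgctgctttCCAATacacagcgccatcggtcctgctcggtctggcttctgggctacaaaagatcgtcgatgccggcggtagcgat

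The 4 globin windows each held a TATA-type match, which 9.40% of 33469 promoter windows of the same length hold. A CCAAT match was present in the 5 windows shown (19.9% of all windows), Bpgm included, and CACCC in the 3 beta-type windows (29.5%). The GATA-type letters, searched on either strand as AGATAA or with another end AGATAG or with another start TGATAA or with both TGATAG, had no match in the 5 windows shown, against 13.1% of all windows. The windows of Hbb-b1 and Hbb-bs were identical at 94.2% of 121 aligned columns and those of Hbb and Hbb-b1 at 68.3% of 126. Genes this similar may share transcript sequence as well, so it is uncertain which beta-type gene gave the signal of any one beta-type probe.

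All 9 genes were well above background on the 4 arrays, no spot of theirs was saturated, and none carried an outlier flag. Signals are Agilent's background-subtracted processed intensities. Log2 levels are relative to the 75th percentile of each array, which ran from 3116.05 to 4369.5 over the 4 arrays. Errors are standard errors (SE) between spots of a probe at the same brightness, which are technical and say nothing about the spread between rats. As a check of the tissue labels, all 15 cerebellum markers were at least 2-fold higher in cerebellum in both states. Scanner files were assigned to samples through the deposited value table, because the file linked to depressive cerebellum and the one linked to prefrontal cortex of controls hold each other's values, at correlations of 0.9999 or more. On both depressive samples the description also names the tissue that their title does not. With the files as linked, those arrays change places and every comparison below changes with them, as given beside the counts.

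The alpha-type globin Hba-a1 was about 3-fold higher on the depressive array of each tissue. Its brighter probe read 8207 in the control and 29819.5 in the depressive pool of cerebellum, and 10024 and 34651 in those of prefrontal cortex. Both depressive pools lay above both control pools. The difference was 3.34-fold in cerebellum (log2 difference 1.74, SE 0.05) and 3.29-fold in prefrontal cortex (1.72, SE 0.05). In these bulk RNA pools, more cells of a type and more RNA per cell cannot be told apart.

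The second Hba-a1 probe, a single spot, was dimmer and showed a larger difference. Its signals, in the same order of arrays, were 171, 1142, 232 and 1309, which is 6.14-fold in cerebellum and 5.36-fold in prefrontal cortex. The gap between the probes was 0.88 on the log2 scale in cerebellum (SE 0.18) and 0.71 in prefrontal cortex (SE 0.17), so the size of the Hba-a1 difference depended on the probe while its direction did not.

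The beta-type globins had larger differences than the brighter Hba-a1 probe. The brighter probe of Hbb, the adult beta chain gene, read 1530.06 and 12504.5 in cerebellum and 2628 and 15123 in prefrontal cortex, control first. Its dimmer probe read 70.8, 581, 136 and 754. Both probes placed the depressive pools above the control pools, by 7.52-fold and 7.55-fold in cerebellum and by 5.47-fold and 5.26-fold in prefrontal cortex.

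Hbb-b1, a second beta chain gene, read 1351, 10903, 2271 and 13521 on its brighter probe and 1197, 8980.12, 1906 and 11193 on the other. Hbb-bs read 381, 2932, 715 and 3698. Hbe2, named as an epsilon-type gene, read 367, 2946, 607 and 3799. None of these probes had a control pool that reached a depressive pool. Over the 12 spots of the 6 beta-type probes, the fold ran from 6.80 to 7.65 in cerebellum and from 4.86 to 6.08 in prefrontal cortex. The largest gap between the spots of a globin probe was 0.08 on the log2 scale in cerebellum and 0.07 in prefrontal cortex, over the 7 globin probes with 2 spots.

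**Figure D1:**
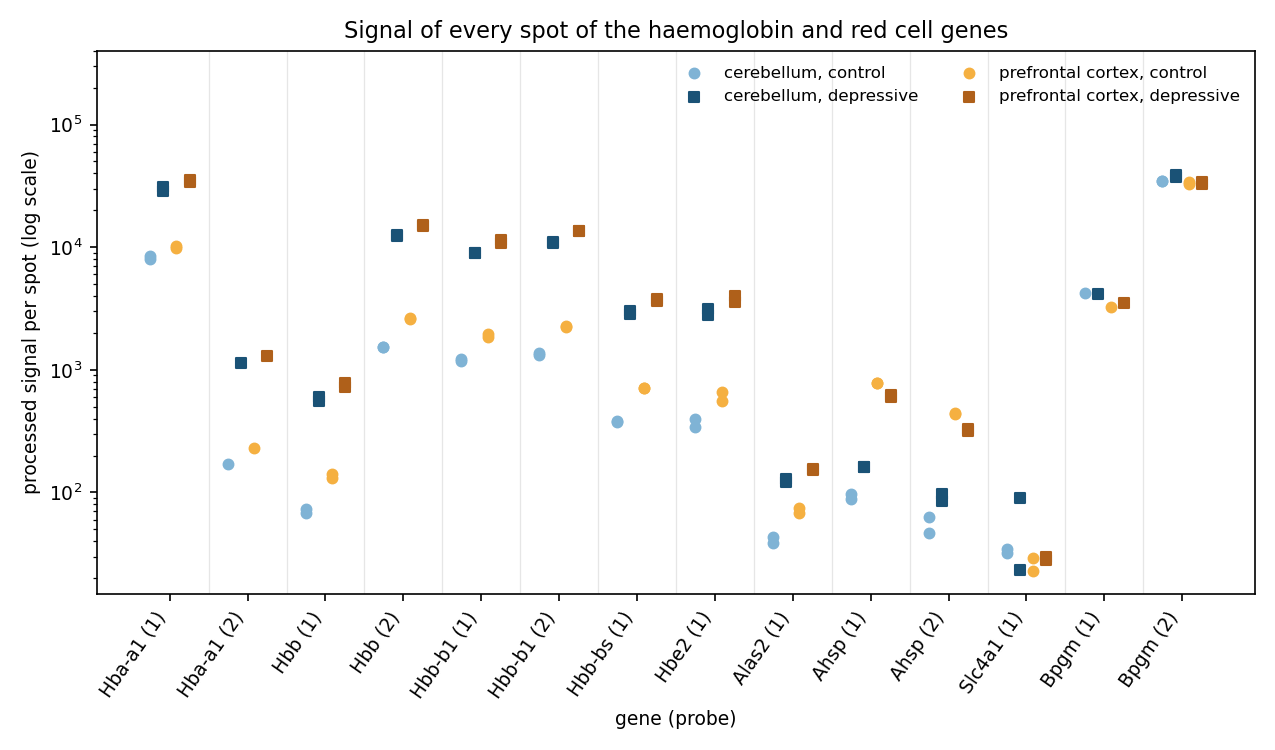
Processed signal of each spot (log axis) for the 14 probes of the 9 genes, with circles for control and squares for depressive pools, blue for cerebellum and orange for prefrontal cortex. On the 8 globin probes both depressive pools lie above both control pools, whereas the Ahsp probes are brighter in prefrontal cortex in both states.

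The gap between beta-type and alpha-type globins depended on the Hba-a1 probe. In cerebellum the log2 difference of Hbb exceeded that of the brighter Hba-a1 probe by 1.17 (SE 0.07), and in prefrontal cortex by 0.74 (SE 0.07). Within the beta type, Hbb differed from Hbb-b1 by 0.02 (SE 0.07) and from Hbe2 by 0.03 (SE 0.09) in cerebellum. The dimmer Hba-a1 probe had log2 differences of 2.62 (SE 0.18) in cerebellum and 2.42 (SE 0.17) in prefrontal cortex. In cerebellum it lay below the beta-type probes, the lowest of which had 2.79. In prefrontal cortex it lay within their range, from 2.30 for Hbb-bs to 2.57 for Hbe2.

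The beta-type difference was also larger in cerebellum than in prefrontal cortex. The cerebellum value of Hbb minus its prefrontal cortex value was 0.46 (SE 0.08), that of Hbb-b1 0.39 (SE 0.08), that of Hbb-bs 0.53 (SE 0.09) and that of Hbe2 0.31 (SE 0.10). For the brighter probe of Hba-a1 it was 0.02 (SE 0.07). With 1 array per group these gaps were not tested.

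Alas2, the enzyme at the start of haem synthesis in red cell precursors, followed the globins at a low signal. It read 41.1 on the control and 126 on the depressive cerebellum array, a 2.83-fold difference (log2 1.499, SE 0.37). In prefrontal cortex it read 71.1 and 154, a 2.06-fold difference (1.04, SE 0.18). Both spots were higher on the depressive array in each tissue, at 1.37 and 1.62 in cerebellum and 0.98 and 1.11 in prefrontal cortex. After a different background correction (normexp) the difference was under 2-fold, at a log2 value of 0.69 in cerebellum and 0.61 in prefrontal cortex.

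Ahsp, the chaperone of free alpha chains, did not follow the globins. Its brighter probe read 93.0 and 161 in cerebellum but 781 and 612 in prefrontal cortex, control first. The depressive pool was thus higher in cerebellum (1.59-fold, log2 0.67, SE 0.21) and lower in prefrontal cortex (1.34-fold, log2 -0.43, SE 0.07). The second probe read 54.0, 91.0, 441 and 324, with the same directions. All 4 Ahsp spots were above 0 in cerebellum and all 4 below 0 in prefrontal cortex, and the state difference in cerebellum exceeded that in prefrontal cortex by 1.09 on the brighter probe (SE 0.22) and 1.15 on the other (SE 0.34).

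Slc4a1, the anion exchanger of the red cell membrane, was close to background. It read 33.3 and 45.5 in cerebellum and 26.03 and 29.0 in prefrontal cortex, control first. Its 2 spots disagreed in cerebellum, at log2 differences of -0.70 and 1.36. The spot with -0.70 was not well above background on the depressive cerebellum array, nor on the control prefrontal cortex array. The spot that read higher had 3 neighbours within 2 rows and 2 columns that were also at least 2-fold higher, so no direction was read from Slc4a1.

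Bpgm was bright and nearly level. Its brighter probe read 34450.3 and 38106 in cerebellum and 33266 and 33369 in prefrontal cortex, control first. Once scaled, the log2 difference was 0.03 (SE 0.05) in cerebellum and -0.07 (SE 0.05) in prefrontal cortex. Its second probe gave -0.14 and 0.02.

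Across the set, 6 of 9 genes were at least 2-fold higher on the depressive array in cerebellum and the same 6, the globins and Alas2, in prefrontal cortex. Over all genes measured, 0.757% of 12680 were that much higher in cerebellum and 0.461% of 12572 in prefrontal cortex. The median log2 difference of the 9 genes was 1.74 in cerebellum and 1.72 in prefrontal cortex, beside -0.03 and -0.01 over all genes. These counts restate how the genes were chosen. With the scanner files as linked, the counts were 6 in cerebellum, with Ahsp in place of Hba-a1, and 1 in prefrontal cortex, Ahsp, but each then sets the arrays read here as one state of both tissues against each other. The genes outside the globins had a median of 0.50 in cerebellum and 0.01 in prefrontal cortex, with 1 of 4 at 2-fold in each.

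**Figure D2:**
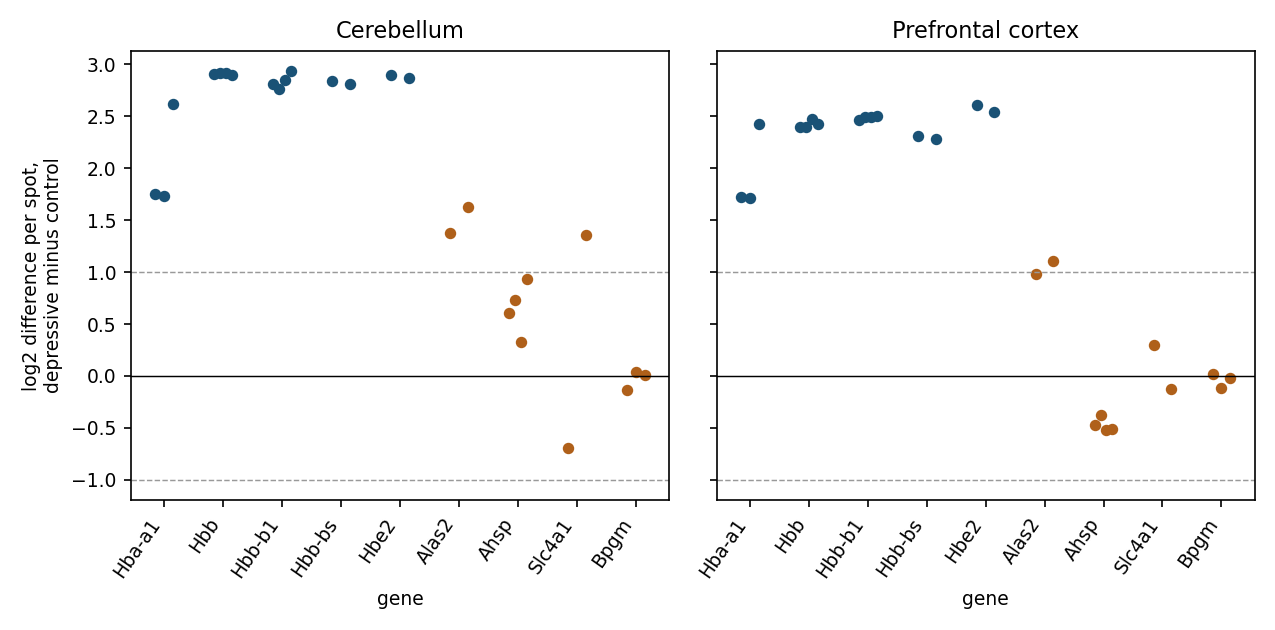
Log2 difference between the depressive and the control array for every spot of the 9 genes, cerebellum left and prefrontal cortex right, globins in blue and other genes in orange, with dashed lines at 2-fold. All 15 globin spots lie above 2-fold in both panels, the Ahsp spots change sides between the panels, and the Slc4a1 spots lie on both sides of 0 in each panel.

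The globins and Alas2 shared an order of the arrays. Levels went up from control cerebellum to control prefrontal cortex, then depressive cerebellum, then depressive prefrontal cortex. For Hbb the scaled log2 levels in that order were -1.39, -0.25, 1.52 and 2.21, and for Hba-a1 they were 1.03, 1.69, 2.77 and 3.40. That the depressive arrays lie above the control arrays restates the choice of genes and carries no test. For the 5 globins each step between the tissues within a state was at least 12.4 times its SE between spots, which is technical. For Alas2 the step from control prefrontal cortex to depressive cerebellum was 0.34 (SE 0.31), so these neighbours did not differ beyond their spread.

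The order of Ahsp was a different one, from control cerebellum (-5.43) through depressive cerebellum (-4.76) and depressive prefrontal cortex (-2.42) to control prefrontal cortex (-1.996). For Bpgm the arrays of one tissue did not differ from each other by more than 2 SE between spots. For Slc4a1 no neighbouring arrays did.

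The next comparison asked how the genes differ between the tissues, which the choice of genes did not use. In limma, fitted to tissue and state with 1 residual degree of freedom, 8 of 9 genes were lower in cerebellum at an adjusted p under 0.05. Over the 11623 genes tested, 72.8% passed that threshold and 38% did so as lower in cerebellum. Most genes differ between the tissues, and the fit takes the control and depressive pools as replicates of a tissue. With the scanner files as linked, the arrays that change places turn this fit into one of control against depressive pools, so it gives no test of the tissues. It called 0 of the 9 genes and 0 of all 11623, where 904 (7.78%) had an unadjusted p under 0.05.

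Ahsp had the widest tissue difference of the 9. It was lower in cerebellum by 10.8-fold in the control pools and by 5.08-fold in the depressive pools. The limma estimate was -2.89 on the log2 scale (SE 0.30, Benjamini-Hochberg adjusted p = 0.00376), lower in cerebellum in both states. It ranked 236 from the lowest estimate among the 11623 genes tested.

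The globins were lower in cerebellum by a smaller amount. Hba-a1 had a limma estimate of -0.64 (SE 0.05, adjusted p = 0.00191), with -0.66 in control and -0.63 in depressive pools. Hbb had -0.92 (SE 0.13, adjusted p = 0.00829), with -1.15 in control and -0.69 in depressive pools. The other beta-type globins had limma estimates from -0.92 to -1.01, with adjusted p from 0.00376 to 0.00874. Each of the 5 globins was lower in cerebellum in both states.

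Alas2 was lower in cerebellum by 0.93 (limma SE 0.13, adjusted p = 0.0079), close to the beta-type globins. Bpgm was lower by 0.27 (limma SE 0.06, adjusted p = 0.0195), and this call was lost after median scaling (adjusted p = 0.0553) and after quantile normalization (adjusted p = 0.579). Over the alternatives its adjusted p ran from 0.00877 to 0.579. Slc4a1 had an estimate of 0.11 (limma SE 0.08, adjusted p = 0.297), which did not pass. Without the filter on dim genes 5 of 9 genes passed in place of 8, while the share over all genes went from 72.8% to 45.4% of 15443, and Hbb (adjusted p = 0.0501), Hbb-bs (0.0519) and Bpgm (0.0739) did not. At 2-fold or more, 6 of 9 genes were lower in control cerebellum and 1 of 9, Ahsp, in depressive cerebellum, where 14.1% and 14.5% of all genes were that much lower.

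**Figure D3:**
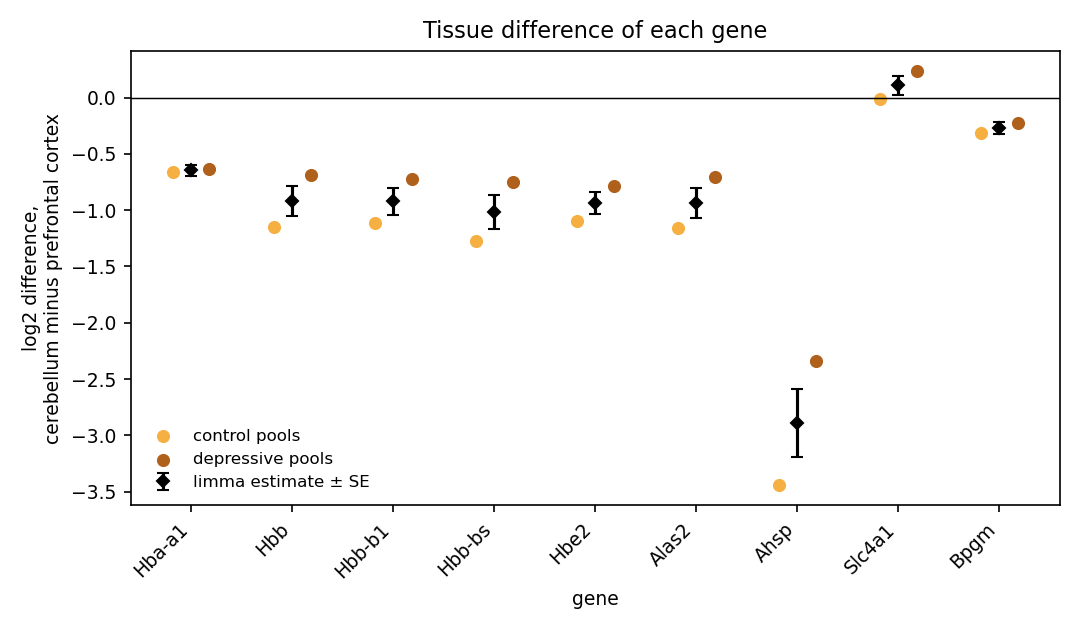
Log2 difference between cerebellum and prefrontal cortex for each gene in the control pools (light orange) and the depressive pools (dark orange), with the limma estimate and its SE in black. Ahsp lies lowest at -2.89, the globins and Alas2 lie between -0.64 and -1.01, and the control point of each beta-type globin is below its depressive point.

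Other genes of the red cell programme were described from lists of related genes. Among other globins, Hbg1, named as a gamma-type gene, was measured on a probe with 10 spots and was nearly level. It read 43.6 and 50.2 in cerebellum and 40.99 and 45.8 in prefrontal cortex, with log2 differences of 0.08 (SE 0.17) and 0.09 (SE 0.09). Hbz, the embryonic zeta chain gene, had -0.32 in cerebellum and 0.32 in prefrontal cortex. Ngb, the globin of neurons, had 0.21 and 0.12, and the muscle globin Mb had -0.03 and 0.09. Hba-a3, a further alpha-type gene with 1 spot, was well above background on the depressive prefrontal cortex array alone, at 39.9, which is at least 4.22-fold above control.

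Of 16 haem synthesis genes on the array, none was 2-fold higher or lower in either tissue, and the medians were -0.04 in cerebellum and -0.03 in prefrontal cortex. Alas1, the enzyme that starts haem synthesis in other tissues, had 0.10 and -0.03, unlike its red cell counterpart Alas2. Slc25a37, the mitochondrial iron importer of red cell precursors, had -0.06 in cerebellum and 0.41 in prefrontal cortex. Of the enzymes of the pathway, Uros had 0.21 and 0.03 and Cpox 0.17 and 0.01.

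Over 12 measured red cell membrane and skeleton genes, the medians were 0.01 in cerebellum and 0.02 in prefrontal cortex, and none was 2-fold higher or lower in prefrontal cortex. Aqp1, a water channel of red cells and of choroid plexus, had 0.70 and 0.96. Rhag and Epb42, further red cell membrane genes, were not well above background on the 4 arrays.

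The erythroid transcription factors were level or at background. Gata1 was not well above background on the 4 arrays. Klf1 read 138 and 136 in cerebellum and 128 and 142 in prefrontal cortex, log2 differences of -0.14 and 0.08. Over 9 measured erythroid regulators the medians were -0.14 and 0.01, with none at 2-fold. Over late red cell and reticulocyte genes, the medians were -0.05 and 0.02, again with none at 2-fold among 16 measured in cerebellum and 18 in prefrontal cortex. Car2, a carbonic anhydrase of red cells and of glia, read 10879.5 and 13869 in cerebellum and 5527.59 and 6400.55 in prefrontal cortex, log2 differences of 0.23 (SE 0.02) and 0.14 (SE 0.03).

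Among genes that clear haemoglobin or handle iron, Hp, the plasma protein haptoglobin that binds free haemoglobin, read 97.2 and 160.1 in cerebellum (log2 0.60, SE 0.21) and 124.7 and 306 in prefrontal cortex (1.22, SE 0.10). Both of its spots were higher on the depressive array in each tissue. Hmox1, the inducible enzyme that breaks down haem, had 0.06 and 0.15. Cd163, the macrophage receptor for haptoglobin and haemoglobin, had -0.51 in cerebellum and 0.47 in prefrontal cortex. The 16 genes on this list had 1 member at 2-fold, Hp in prefrontal cortex, and medians of -0.01 and 0.02.

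**Figure D4:**
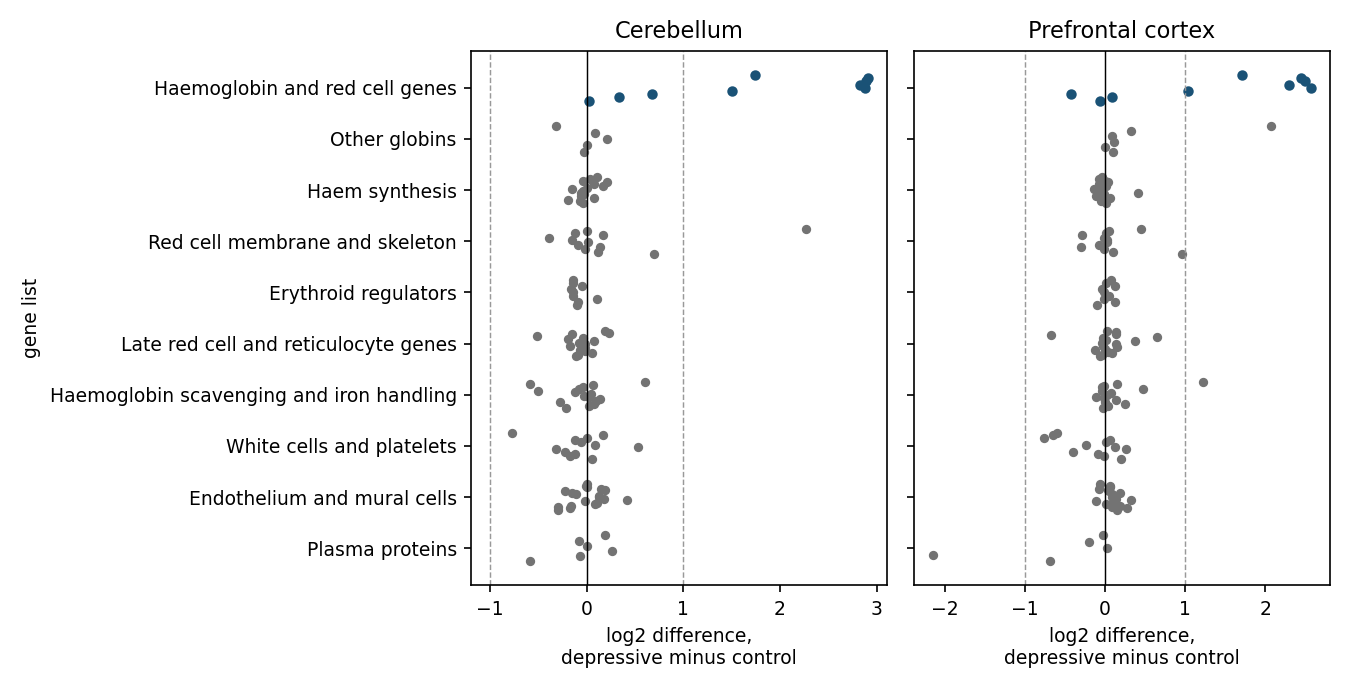
Log2 difference between the depressive and the control array for the 9 genes (blue) and for the measured genes of the other lists (grey), cerebellum left and prefrontal cortex right, with dashed lines at 2-fold. Outside the top row, Hba-a3 and Hp are the grey points above 2-fold in prefrontal cortex, and Ttr the one below.

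Markers of other cells were set beside the globins. The summed scaled signal of the red cell markers, which is mostly Hba-a1 and Hbb, was 2.51 and 9.83 in cerebellum and 4.40 and 15.5 in prefrontal cortex, control first. Of 10 such markers on the array 7 were well above background on each array. Endothelial markers summed to 1.92 and 1.91 in cerebellum and 3.03 and 3.09 in prefrontal cortex, and 4 of 4 were well above background throughout. Among them the adhesion gene Pecam1 had 0.00 and -0.06 and the tight junction gene Cldn5 -0.01 and 0.06. On a wider list of 19 endothelial and mural genes the medians were 0.00 and 0.09, with 10 of 19 above 0 in cerebellum and 16 of 19 in prefrontal cortex. The largest of these differences was that of Emcn, an endothelial sialomucin, at 0.41 and 0.33.

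Neutrophil markers summed to 0.0980 and 0.0904 in cerebellum and 0.166 and 0.137 in prefrontal cortex, with 2 to 4 of 5 well above background. S100a8 and S100a9, abundant neutrophil transcripts, were lower on the depressive prefrontal cortex array, at log2 -0.60 and -0.65. In cerebellum S100a9 had 0.17 (SE 0.39), and S100a8 was well above background in the control pool alone. Camp, a further neutrophil marker, had -0.13 in cerebellum and 0.06 in prefrontal cortex. Platelet markers summed to 0.138 and 0.119 in cerebellum and 0.156 and 0.129 in prefrontal cortex. On the list of white cell and platelet genes, 12 were measured in each tissue with medians of -0.09 and -0.05, and Lyz2, a lysozyme of myeloid cells, had 0.53 and 0.13. The depressive sums of endothelial, neutrophil and platelet markers lay between 0.823 and 1.02 times the control sums. These sums also rest on few genes. They are mostly Cldn5 for endothelium, mostly Pf4 for platelets and, in cerebellum, mostly Camp for neutrophils. For the red cell markers the ratios were 3.91 in cerebellum and 3.52 in prefrontal cortex. Those red cell ratios restate the choice of genes, because the sums are mostly Hba-a1 and Hbb, and they carry no test.

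Markers of tissue at the edge of the slices differed between the states. Meningeal markers, 5 of 5 well above background, summed to 88.7 and 96.8 in cerebellum and to 18.6 and 36.9 in prefrontal cortex. All 5 were higher on the depressive array in each tissue, with median log2 differences of 0.15 and 0.87. Choroid plexus markers summed to 175 and 171 in cerebellum and to 8.31 and 1.94 in prefrontal cortex, sums that are mostly Ttr. In cerebellum the other 4 of the 5 were higher in the depressive pool, from 0.56 for Folr1 to 0.81 for Kcnj13 on the log2 scale, and so went the same way as the globins there. In prefrontal cortex 4 of the 5 were at least 2-fold lower and Kcnj13 was higher, at 0.57. Ttr, the thyroid hormone carrier made by choroid plexus and liver, had -0.07 in cerebellum and -2.15 in prefrontal cortex. Among the plasma proteins, of which Ttr is one, the medians were -0.03 and -0.20. Anterior pituitary markers summed to 0.584 and 0.264 in cerebellum and to 0.343 and 0.320 in prefrontal cortex. Except in control cerebellum, these sums are mostly Pomc, which was nearly level at -0.11 and -0.04. In cerebellum 5 of 5 were well above background in the control and 1 of 5 in the depressive pool. Gh1 was lower there by at least 63.1-fold, Prl by at least 18.6-fold and Cga by at least 5.05-fold. In prefrontal cortex Gh1 was lower by at least 3.40-fold. The part of these tissues in the globin differences was not tested.

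Genes with a pattern like that of Hbb were sought over the 11622 other genes well above background on all 4 arrays, by the Euclidean distance between log2 levels centred over the 4 arrays. The nearest 4 were Hbb-b1 (0.04), Hbe2 (0.09), Hbb-bs (0.16) and Hba-a1 (1.01). These globins were chosen for their rise on the same depressive arrays, so their nearness to Hbb in part restates the choice. The beta-type probes may also share transcript sequence. The nearest genes outside the set were Lhx9 (1.31), Ifi27 (1.48), Slc15a1 (1.84), Hp (1.85) and Acsm5 (1.86), with Alas2 between the first of these and Ifi27 at 1.41. In control cerebellum neither spot of the Slc15a1 probe used was well above background, at 8.74 and 12.2, and the gene passed through another probe. Ifi27, an interferon-induced gene, read 22136 and 67206 in cerebellum and 34688 and 70325 in prefrontal cortex, with log2 differences of 1.48 and 0.95. Ahsp ranked 10147 of 11622, and Bpgm 3044.

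Of 12201 genes measured in both tissues, 10 were at least 2-fold higher on both depressive arrays, and 8 of these were well above background on all 4 arrays. These 8 were the 5 globins, Alas2, Lhx9 and Pfkfb1. For Lhx9, whose spots of the brighter probe were not well above background in control cerebellum, the spots gave 0.36 and 5.33 in cerebellum, and the higher one had 7 neighbours that were also 2-fold higher. For Pfkfb1 they gave -0.15 and 2.36, with 10 such neighbours beside the higher one. Among the 15 globin spots, none had more than 2 such neighbours in cerebellum or more than 3 in prefrontal cortex.

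**Figure D5:**
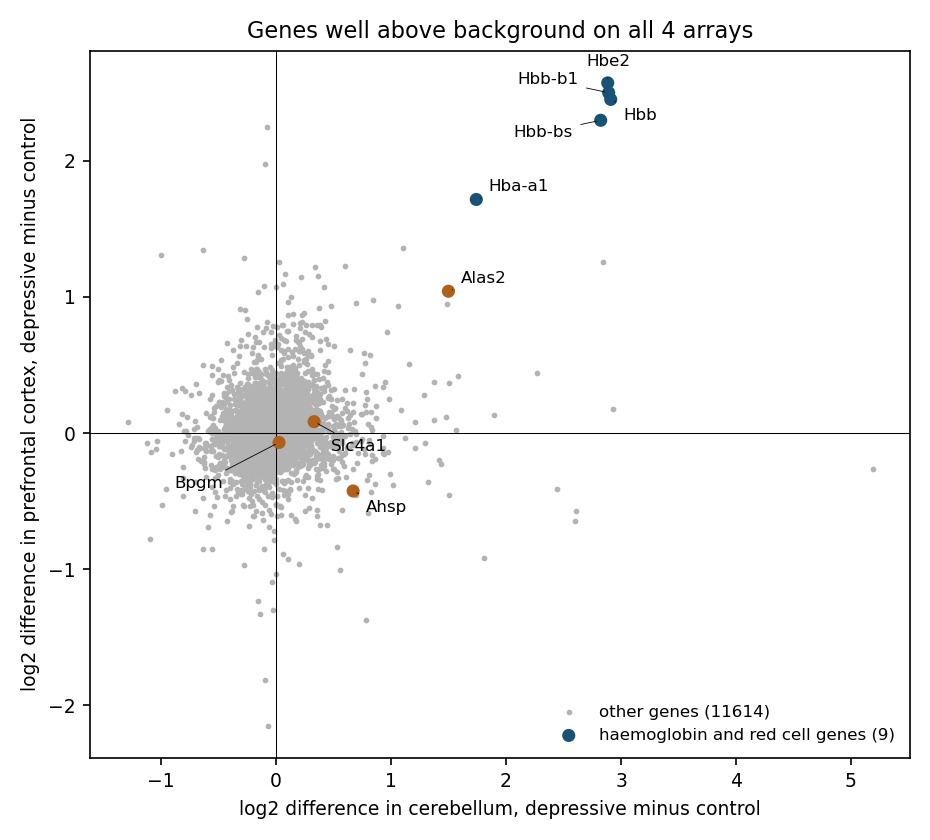
Log2 difference between the depressive and the control array in cerebellum (horizontal) and in prefrontal cortex (vertical) for 11623 genes, with the globins in blue, the other 4 genes of the set in orange and all others in grey. The 4 beta-type globins lie together at the upper right, Hba-a1 and Alas2 lie below them, Bpgm and Slc4a1 lie within the cloud and Ahsp lies to the lower right of 0.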

How the data were processed

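RNA of 4 pools was hybridised to 4 arrays on 1 slide, in 1 colour. Scans were read with Agilent Feature Extraction 10.7.1.1, protocol GE1_107_Sep09, per the file headers. The deposited files give a background-subtracted intensity per spot, and the deposited value table an intensity whose scaling is not stated in the sources used here. The array design names build rn4, so sequences of GRCr8 were matched by symbol. Each value-table column matched a single scanner file at a correlation of 0.9999 or more, and that file was used.

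Control and outlier spots were left out. Log2 intensity was averaged per probe, and each array's 75th percentile over spots subtracted. Named probes numbered 18355. A gene took its brightest probe, and was well above background if 50% of the spots of any probe were. A dim array took the lowest level well above background as a bound. SE between spots was pooled in 20 bins of brightness. The tissue fit used limma 3.58.1 (R 4.3.3), tested on simulated data.

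Members and lists were chosen with earlier results of these data known. Named genes were the 9 members, up to 4 per list with the largest difference, 9 fixed genes and the 5 nearest to Hbb. Some of these are not reported here. Further genes (Hbg1, Alas1, Rhag, Epb42, Pfkfb1) were chosen after their values were seen. So were the single genes Camp, Pf4, Folr1, Kcnj13, Gh1, Prl, Cga and Pomc from the marker lists. For normexp the median spot signal replaced the planned mean signal, which the files do not hold as a column.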

Additional observations from a re-analysis of the deposited data

Results flagged for a closer look

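Ahsp and Bpgm had differences of opposite sign in the tissues, which were not tested because each group is 1 array. The log2 difference between depressive and control pools was 0.67 for Ahsp in cerebellum and -0.43 in prefrontal cortex, with the same signs on all spots of both probes. For Bpgm the values were 0.025 and -0.069, each within 2 SE between spots of 0, and its second probe had the opposite signs.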

How the results depend on the processing

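The alternatives were normexp background correction, median scaling, quantile normalization, the mean over probes, a filter on all 4 arrays for dim genes, the value table and, added after the data were seen, the dimmest probe of each gene. Under each of these, 5 or 6 of 9 genes were at least 2-fold higher on the depressive array in both tissues, and under the planned ones 4 to 6 were lower in control cerebellum. Normexp lost Alas2 from the genes at 2-fold in both tissues, and Alas2 and Hbe2 from those lower in control cerebellum. Hbb stayed between 7.15-fold and 7.80-fold in cerebellum and between 5.34-fold and 5.47-fold in prefrontal cortex under the planned ones. Without the filter on dim genes, limma called 5 of 9 genes between the tissues and 45.4% of all genes, against 72.8% with it. With the scanner files taken as linked, the counts for prefrontal cortex and for the tissues in depressive pools became 1 and 6, and limma called 0 of 9 and 0 of 11623 genes (904 at an unadjusted p under 0.05). In that reading 2 arrays change places, so the limma fit sets control against depressive pools and tests no tissue difference. No paired analysis was possible because each group has 1 array and the labels give no replicate numbers. Low signal limits Slc4a1 and Alas2.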
